A study of Mus musculus with 2 samples.

Results

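The BMP and TGF-beta module comprised 58 of the 32286 genes counted in 2 single-cell RNA libraries of mouse endosteal marrow stroma. Its members were taken by gene symbol: every symbol beginning with Bmp, Gdf, Tgfbr, Inhb, Acvr, Smad or Grem and continuing with a digit or a lower-case letter, together with Tgfb1, Tgfb2, Tgfb3, Nog, Chrd, Fst and Fstl1. The symbols brought in 20 BMP and GDF ligands, 7 TGF-beta and activin ligands, 7 antagonists, 13 receptors, 8 SMADs and 3 genes of other function, namely Bmp1, Bmp2k and Tgfbrap1. In all, 48 members reached 50 UMIs (unique molecular identifiers, which tag single captured RNA molecules) summed over the kept cells and are described here. Bmp15 with 60 UMIs and Gdf5 with 64 lay just inside this limit and Gdf6 with 29 lay outside it. The other members under the limit were Acvr1c, Bmp8b, Inhbe, Gdf2 and Gdf7 with a few UMIs each and Gdf1, Bmp10, Bmpr1b and Inhbc with none, so 6 of the 10 had 1 to 49 UMIs and 4 had no UMI.

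Ligands of this family are secreted dimers that bring together type II receptors (Bmpr2, Acvr2a, Acvr2b, Tgfbr2) and type I receptors (Bmpr1a, Acvr1, Acvrl1, Acvr1b, Tgfbr1). BMP-type receptors phosphorylate SMAD1, SMAD5 and SMAD9, TGF-beta and activin receptors phosphorylate SMAD2 and SMAD3, and both sets act in the nucleus with SMAD4, while SMAD6 and SMAD7 inhibit the signal. Noggin, chordin and GREM1 bind BMPs outside the cell and follistatin binds activins. In bone, BMPs are known inducers of osteoblast formation, and TGF-beta is stored in large amounts in the matrix.

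The chase library came from mice harvested 4 weeks after tamoxifen and the pulse library from mice harvested 24 hours after it. All mice were male and of genotype Adipoq-CreER;Ai9 (also given as Adipoq-CreERT2), in which tamoxifen activates Cre in cells that use the Adipoq promoter and so switches on tdTomato for good; tamoxifen was given by oral gavage on 3 consecutive days at 8 weeks of age to both groups. Bright tdTomato+ cells of the femur and tibia endosteal niche were sorted, 0.29% of the total for the chase sample and 0.01% for the pulse sample. The series used 4 mice, with no statement in the sources of how they were divided or pooled between the libraries. With 1 library per harvest time there is no replicate check, and no test was made; every interval below is an exact 95% interval that covers counting error only.

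After filtering, 8335 chase cells and 9212 pulse cells remained, with medians of 6592 UMIs over the 10046 chase barcodes and 7067.5 over the 10608 pulse barcodes before filtering; 20 barcode sequences occurred in both sets of kept cells. Cells were classed one by one from marker genes, none of which is a module member. CAR cells are CXCL12-abundant reticular cells of the marrow stroma. The stroma held 297 chase and 396 pulse osteogenic CAR-like cells, 282 and 199 both-gate CAR-like cells that passed the osteogenic and the adipogenic gate, 3522 and 3473 adipogenic CAR-like cells, 264 and 341 osteoblast-like cells, and 22 and 68 osteocyte-like cells, too few for a comparison. In the adipogenic CAR-like cells Adipoq reached 2089 CPM in chase and 1995 CPM in pulse, where CPM is UMIs scaled to 1000000 UMIs of the class. The tdTomato transcript had 1579 and 1758 CPM in osteogenic CAR-like cells and 2121 and 2165 CPM in adipogenic CAR-like cells. The 5 markers of mature adipocytes summed to 13.5 and 12.8 CPM in adipogenic CAR-like cells. These classes are ranges of a score: of 4387 chase and 4477 pulse stromal cells, 151 and 402 lay within 1.25-fold of the adipogenic cut, and 343 and 452 of the osteogenic cut. The median adipogenic score was 25.3 per 10000 UMIs in chase and 29.8 in pulse osteogenic CAR-like cells, against 169 and 126 in adipogenic CAR-like cells; the median osteogenic score was 118 and 88.4 in osteogenic CAR-like cells, against 22.9 and 24.6 in adipogenic CAR-like cells. Adipogenic CAR-like cells came mostly from different clusters in the libraries, with 2743 of the chase cells in cluster 1 and 2772 of the pulse cells in cluster 0. Despite the sort, the libraries also held endothelial-like cells (365 chase, 414 pulse), monocyte or macrophage-like cells (1586 and 1515), neutrophil-like cells (425 and 657), T cell-like cells (320 and 471) and smaller groups. UMIs come from the 3′ ends of transcripts, so levels below are compared for 1 gene between classes or libraries and not between genes.

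**Figure D1:**
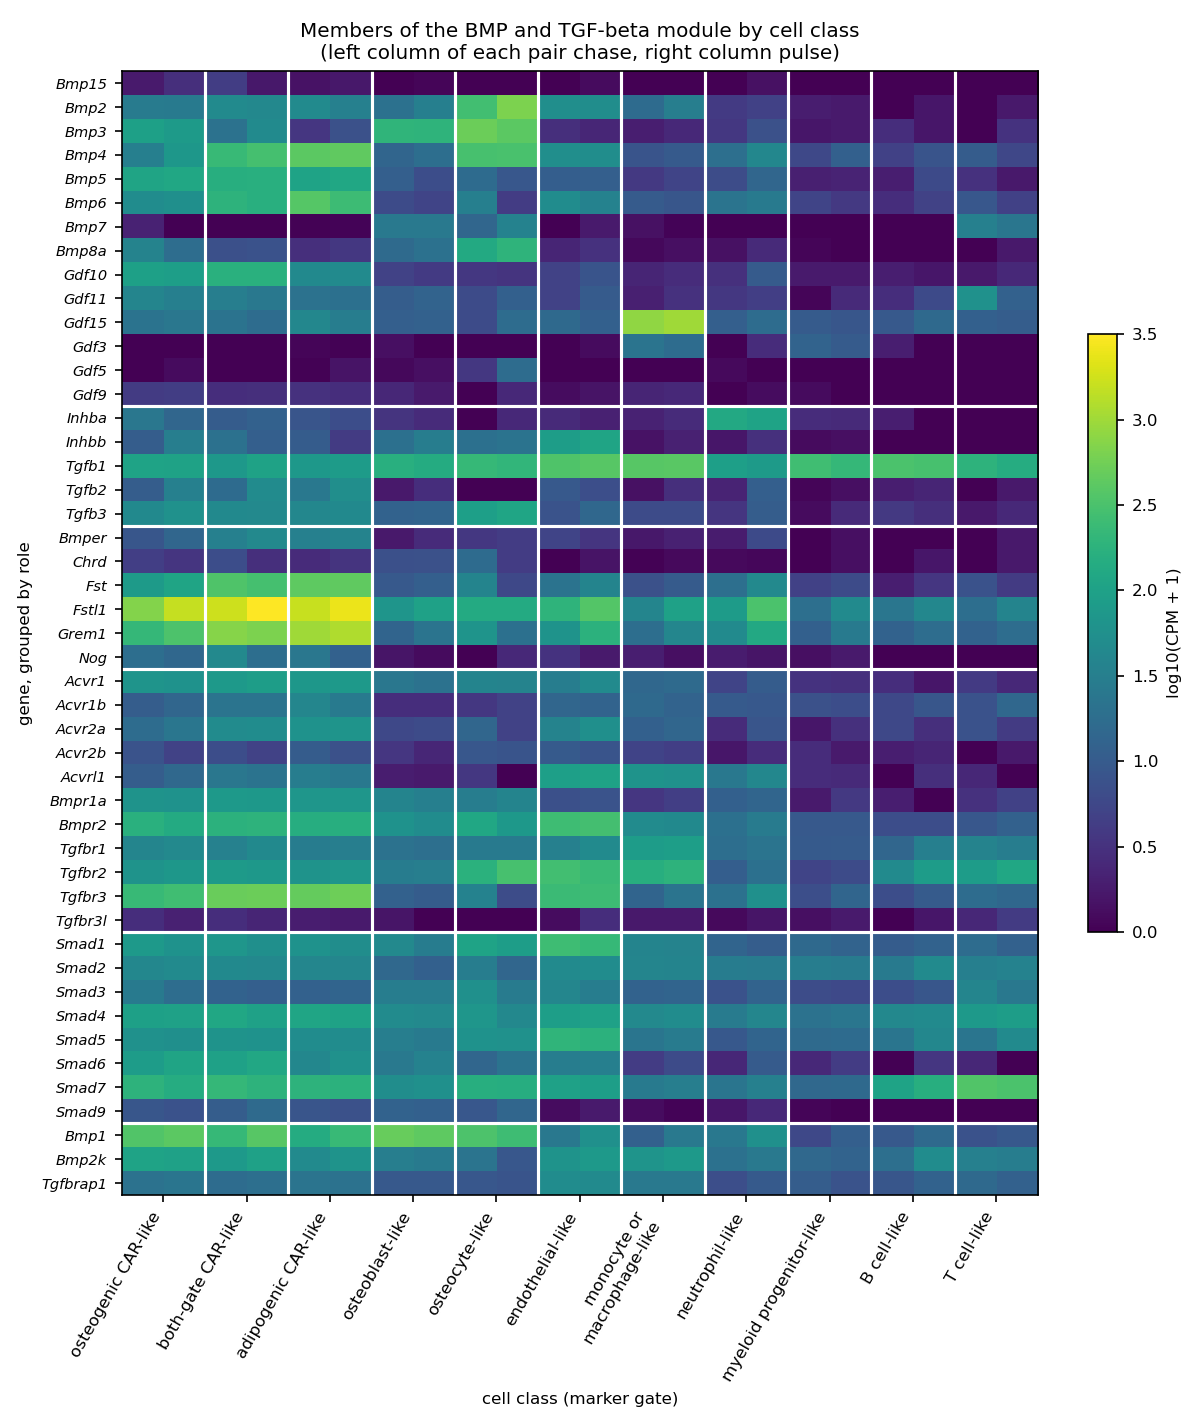
Level of 47 of the 48 members as log10(CPM + 1) in 11 cell classes, with chase in the left and pulse in the right column of each pair and genes grouped by role from ligands (top) to genes of other function (bottom). The CAR-like classes held 30 to 32 members at 20 CPM or more, against 16 to 19 in osteoblast-like cells and 24 in chase and 21 in pulse osteocyte-like cells. The 8 osteoblast markers summed to 228920 CPM in chase and 246765 CPM in pulse osteoblast-like cells, which lowers the CPM of all other genes there.

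Among the 11 classes with at least 50 cells in each library, 35 of the 48 members peaked in the same class in both libraries. Adipogenic CAR-like cells were the highest class for 8 of them, including the ligands Bmp4, Bmp6 and Tgfb2, the antagonists Grem1 and Fst, and the receptors Acvr1b and Acvr2a. Both-gate CAR-like cells were highest for 7 (Fstl1, Nog, Bmp5, Gdf10, Acvr1, Bmpr1a and Smad6), and osteogenic CAR-like cells for 2 (Tgfb3 and Gdf9). Some of these leads were slight. In chase, Tgfb3 had 45 CPM in osteogenic and 44.5 CPM in both-gate CAR-like cells. The lead of Gdf9 rested on 8 chase and 12 pulse UMIs in osteogenic CAR-like cells. Osteoblast-like cells led for Bmp3, Bmp1 and Chrd. Endothelial-like cells led for 9, among them Acvrl1, Tgfbr2, Bmpr2, Smad1, Smad5 and Inhbb. Monocyte or macrophage-like cells led for Tgfb1, Tgfbr1, Gdf15 and Gdf3, neutrophil-like cells for Inhba and T cell-like cells for Smad7. The stromal classes led for 8 of the 14 ligands among these 35. Members with at least 20 CPM numbered 30 of 48 in chase and 31 in pulse osteogenic CAR-like cells, against 32 and 30 in adipogenic CAR-like cells. No share over all genes stands beside these counts or beside the 35 members, so they do not set the module apart.

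Between osteogenic and adipogenic CAR-like cells, 20 of 42 members differed by at least 1.5-fold in the same direction in both libraries. In chase, 9 of 42 members assessed (those with at least 50 UMIs over both classes) were at least 1.5-fold higher in osteogenic CAR-like cells, where 14.3% of all 11737 genes assessed were, and 14 were at least 1.5-fold lower, where 16.8% of all genes were. In pulse, 10 of 43 were higher, against 13.9% of all 11941 genes, and 13 were lower, against 12.6%. In both libraries at once, 8 of 42 members were higher (background 8.52%) and 12 were lower (background 9.56%). The median log2 ratio over the members was 0.00 in chase and 0.03 in pulse, beside 0.05 and 0.08 over all genes assessed. The module thus split into genes that were higher and genes that were lower, with a median near that of all genes.

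**Figure D2:**
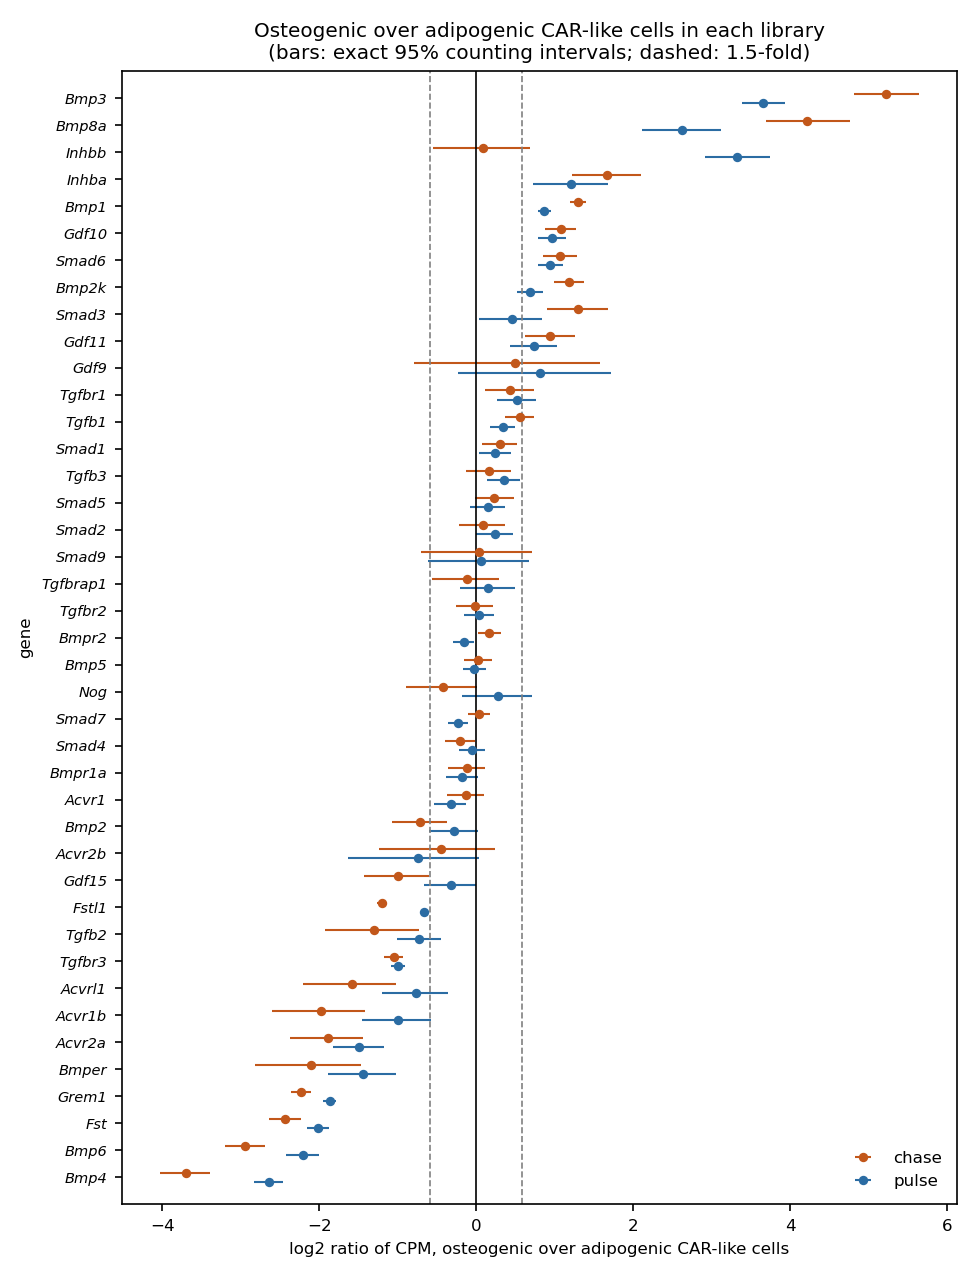
Log2 ratio of CPM in osteogenic over adipogenic CAR-like cells for the 41 members assessed in both libraries with UMIs in every group, in chase (orange) and pulse (blue), with exact 95% counting intervals as bars and 1.5-fold as dashed lines. Bmp3 and Bmp8a lie at the top, far to the right, and Bmp4, Bmp6, Fst and Grem1 at the bottom, far to the left, in both libraries; Inhbb is far to the right in pulse and near 0 in chase.

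Among the BMP ligands, Bmp4 (chr14:46383520-46390669 on mm10, minus strand, GENCODE annotation), an inducer of bone and cartilage, had 31.6 CPM in chase and 71.2 CPM in pulse osteogenic CAR-like cells, against 413 and 446 CPM in adipogenic CAR-like cells. It was thus 13-fold (interval 10.5 to 16.4) lower in chase and 6.26-fold (interval 5.53 to 7.11) lower in pulse. Bmp6, a ligand known for inducing hepcidin in the liver and for osteogenic activity, had 49.6 and 54.3 CPM in osteogenic CAR-like cells, against 382 and 252 CPM in adipogenic CAR-like cells, 7.71-fold (interval 6.49 to 9.24) lower in chase and 4.64-fold (interval 4.02 to 5.37) lower in pulse. For both ligands, both-gate CAR-like cells lay between the other CAR-like classes, with 229 and 292 CPM of Bmp4 and 181 and 160.1 CPM of Bmp6. Osteoblast-like cells had less than the CAR-like classes, 12.8 and 17.3 CPM of Bmp4, while the few osteocyte-like cells had 301 and 310.2 CPM.

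Bmp3 (chr5:98854415-98884396, plus strand), the most abundant BMP of bone matrix and an inhibitor of other BMPs, ran the other way. It had 96.4 CPM in chase and 80.3 CPM in pulse osteogenic CAR-like cells, against 2.59 and 6.35 CPM in adipogenic CAR-like cells, 37.2-fold (interval 28.1 to 49.99) higher in chase and 12.6-fold (interval 10.5 to 15.3) higher in pulse. Its level was higher still in osteoblast-like cells, at 194 and 191 CPM, and in osteocyte-like cells, at 512 and 416 CPM. Bmp8a, a relative of the osteogenic protein BMP7, had 35.8 and 16.8 CPM in osteogenic CAR-like cells, against 1.92 and 2.74 CPM in adipogenic CAR-like cells, 18.6-fold (interval 13 to 27.1) higher in chase and 6.15-fold (interval 4.34 to 8.68) higher in pulse. Reads of Bmp8a and its close paralog Bmp8b may be hard to tell apart, so the Bmp8a level is uncertain. The 8 osteoblast markers summed to 13342 CPM in chase and 8798 CPM in pulse osteogenic CAR-like cells, against 4576 and 2579 CPM in adipogenic CAR-like cells. If all Bglap in osteogenic CAR-like cells had come with RNA of osteoblast-like cells, that RNA would have brought 2.53 CPM of Bmp3 in chase and 1.54 CPM in pulse, and 0.197 and 0.162 CPM of Bmp8a. Bmp7, a ligand used to induce bone, was too rare in CAR-like cells to assess and had 24.8 CPM in chase and 24.7 CPM in pulse osteoblast-like cells. It was not confined to them, with 32.1 CPM in chase and 22.8 CPM in pulse T cell-like cells.

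Gdf10, also called BMP3b, was another ligand on the osteogenic side. Its level was 95.7 CPM in chase and 89.6 CPM in pulse osteogenic CAR-like cells, against 45.3 and 45.7 CPM in adipogenic CAR-like cells, which is 2.11-fold (interval 1.83 to 2.42) and 1.96-fold (interval 1.73 to 2.21) higher. Both-gate CAR-like cells had the most Gdf10, 166 and 163 CPM, and osteoblast-like cells had little, 3.89 and 2.93 CPM. Gdf11, a ligand of activin type II receptors, was 1.93-fold (interval 1.53 to 2.4) higher in osteogenic CAR-like cells in chase and 1.67-fold (interval 1.35 to 2.04) higher in pulse. Bmp5, a ligand of the BMP6 group, did not pass 1.5-fold, with 109 and 120.3 CPM in osteogenic CAR-like cells, against 107 and 122 CPM in adipogenic CAR-like cells. Bmp2, a potent bone inducer, was 1.64-fold (interval 1.29 to 2.11) lower in osteogenic CAR-like cells in chase and did not pass in pulse, with 26.2 CPM in osteogenic and 32 CPM in adipogenic CAR-like cells. Its level in the few osteocyte-like cells, 272 CPM in chase and 652 CPM in pulse, lay above that in every class with at least 50 cells.

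Of the TGF-beta and activin ligands, Tgfb2 had 9.91 CPM in chase and 32 CPM in pulse osteogenic CAR-like cells, against 24.4 and 53 CPM in adipogenic CAR-like cells, 2.46-fold (interval 1.66 to 3.8) and 1.66-fold (interval 1.37 to 2.02) lower. Tgfb1 and Tgfb3, the other TGF-beta ligands, did not pass in either library: Tgfb1 had 106 and 104 CPM in osteogenic CAR-like cells, against 71.9 and 82.1 CPM in adipogenic CAR-like cells. Inhba, the activin A subunit, was 3.18-fold (interval 2.34 to 4.28) higher in chase and 2.32-fold (interval 1.65 to 3.21) higher in pulse osteogenic CAR-like cells, at levels of 23.3 and 13.2 CPM, against 7.31 and 5.71 CPM in adipogenic CAR-like cells; in pulse the direction turned under stricter gates (log2 ratio -0.76).

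The antagonists Grem1, Fst, Fstl1 and Bmper were lower in osteogenic CAR-like cells in both libraries. Grem1 (chr2:113746164-113758646, minus strand), which binds BMP2, BMP4 and BMP7, had 215 CPM in chase and 333 CPM in pulse osteogenic CAR-like cells, against 1010.1 and 1217 CPM in adipogenic CAR-like cells, 4.7-fold (interval 4.32 to 5.12) and 3.65-fold (interval 3.45 to 3.87) lower. Fst (chr13:114452290-114458951, minus strand), follistatin, had 78.9 and 110.3 CPM in osteogenic CAR-like cells, against 426 and 446 CPM in adipogenic CAR-like cells, 5.4-fold (interval 4.71 to 6.23) and 4.04-fold (interval 3.66 to 4.47) lower. Fstl1, a secreted glycoprotein related to follistatin, was lower as well, with 697 and 1569.7 CPM, against 1603 and 2489 CPM in adipogenic CAR-like cells, 2.3-fold (interval 2.19 to 2.41) and 1.59-fold (interval 1.54 to 1.63) lower. Bmper, a modulator that binds BMPs outside the cell, was 4.3-fold (interval 2.77 to 7.08) and 2.72-fold (interval 2.03 to 3.71) lower. Nog, noggin, did not follow them, with 17.5 and 13.8 CPM in osteogenic CAR-like cells, against 23.5 and 11.4 CPM in adipogenic CAR-like cells. Chrd, chordin, had too few UMIs to be assessed in chase and did not pass in pulse. It had 9 UMIs in osteogenic CAR-like cells of each library. Its level was 3.43 and 2.48 CPM there, against 1.67 and 2.4 CPM in adipogenic CAR-like cells.

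**Figure D3:**
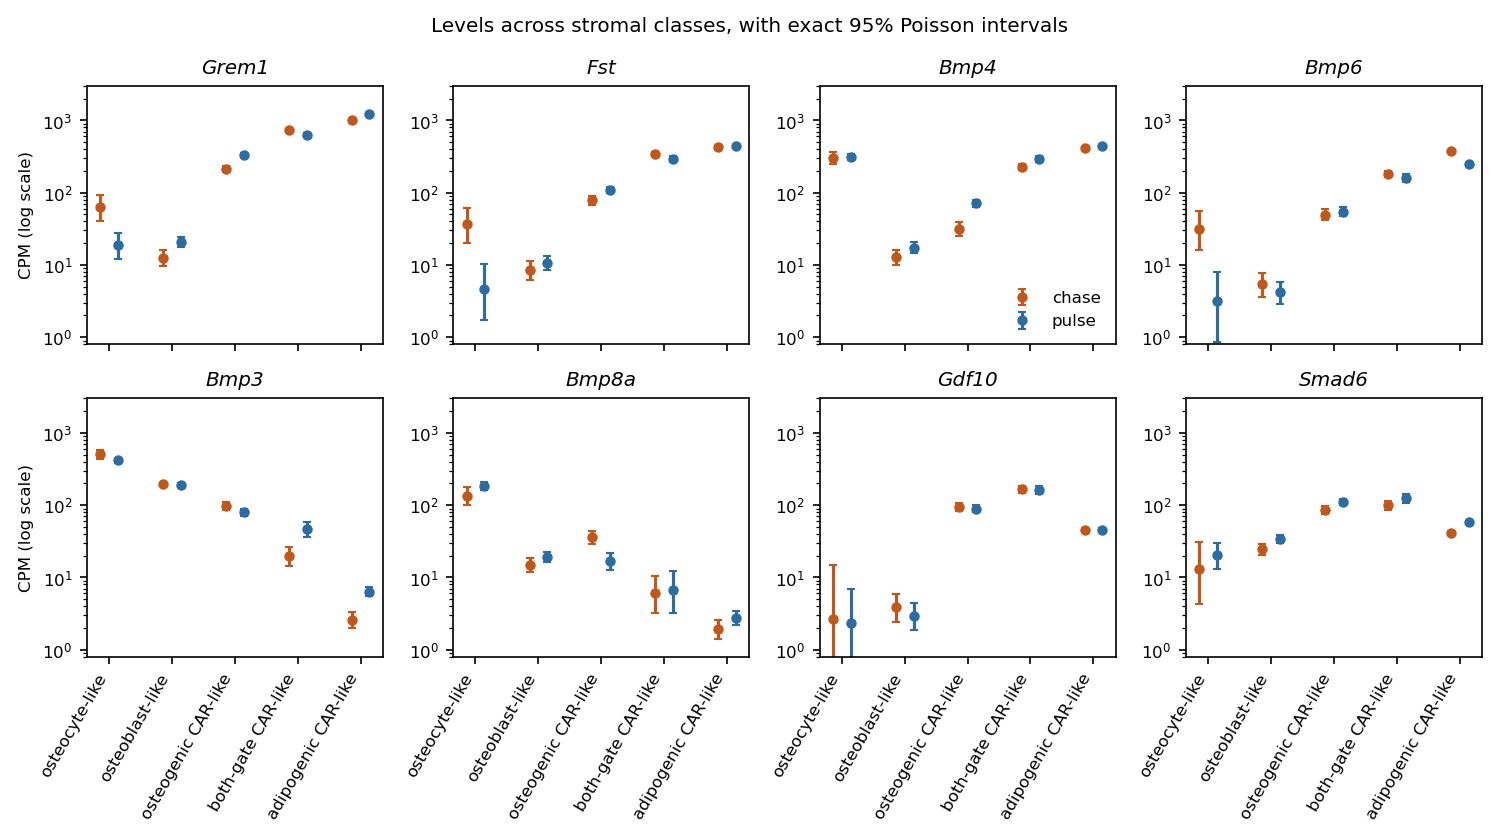
CPM on a log axis of 8 members in 5 stromal classes, chase in orange left of pulse in blue, with exact 95% Poisson intervals. Grem1, Fst, Bmp4 and Bmp6 are lower in osteogenic than in adipogenic CAR-like cells, Bmp3 and Bmp8a are higher, and Gdf10 and Smad6 are highest in both-gate CAR-like cells.

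The ligand Bmp4 and the antagonists were read in the same single cells. After each cell was thinned to 2000 UMIs, Grem1 had at least 1 UMI in 22.8% (18 to 28.1) of chase and 34.9% (30.01 to 40.0) of pulse osteogenic CAR-like cells, against 63.7% (62 to 65.3) and 78.4% (77 to 79.8) of adipogenic CAR-like cells. In B cell-like cells, which should lack it, the share was 1.41% (0.171 to 5.00) in chase and 2.97% (1.37 to 5.56) in pulse, and the median depth of that class was 3769 and 2170 UMIs, against 6590.5 and 8173 in adipogenic CAR-like cells. Bmp4 had a UMI in 6.05% (3.56 to 9.51) and 8.92% (6.22 to 12.3) of osteogenic CAR-like cells, against 45.8% (44.1 to 47.5) and 48% (46.3 to 49.7) of adipogenic CAR-like cells, with 1.41% (0.171 to 5.00) and 1.32% (0.361 to 3.35) in B cell-like cells. Without thinning, the Grem1 shares were 43.8% and 62.4% in osteogenic and 83.1% and 93% in adipogenic CAR-like cells, and those of Bmp4 were 18.5% and 27.8% in osteogenic and 69.8% and 76.7% in adipogenic CAR-like cells. Thinning left out 16 chase and 26 pulse osteogenic CAR-like cells and 225 and 102 adipogenic CAR-like cells. It also left out 11 chase and 209 pulse B cell-like cells, so their shares rest on the 142 and 303 deeper cells. Among adipogenic CAR-like cells, Bmp4 and Grem1 were found together in 29.4% (interval 27.8 to 31) of chase and 39.1% (interval 37.4 to 40.8) of pulse cells, where the product of the separate shares was 29.2% and 37.6%. Bmp4 and Fst were found together in 23.4% (interval 22 to 24.9) and 27.4% (interval 25.9 to 28.9) of these cells, with products of 22.7% and 25.5%. For Bmp4 and Fst the product lay just below the interval in pulse adipogenic CAR-like cells. It did so too in pulse osteogenic CAR-like cells, at 2.97% (interval 1.49 to 5.26) with a product of 1.42%. The same held in pulse both-gate cells, at 18.2% (interval 12.9 to 24.5) with a product of 12.6%. In chase the product lay within the interval in each of the 3 CAR-like classes. For Bmp4 and Grem1 the product lay within the interval in each CAR-like class of both libraries. These intervals cover the joint share only and leave out the counting error of the product. Cells of 1 library are not replicates, so no conclusion on joint expression is drawn.

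Of the 11 receptors described, 4 were lower in osteogenic CAR-like cells in both libraries and none of those assessed was higher in either, where 9.56% of all genes were lower in both libraries and 8.52% higher. Of the type II receptors, Acvr2a, which binds activins and several BMPs, had 16 CPM in chase and 22.9 CPM in pulse osteogenic CAR-like cells, against 59.4 and 64.4 CPM in adipogenic CAR-like cells, 3.71-fold (interval 2.73 to 5.17) and 2.81-fold (interval 2.26 to 3.55) lower. Of the type I receptors, the activin receptor Acvr1b was 3.96-fold (interval 2.68 to 6.09) and 2.00-fold (interval 1.49 to 2.73) lower and Acvrl1, also called ALK1, was 3.01-fold (interval 2.03 to 4.63) and 1.7-fold (interval 1.28 to 2.31) lower. Tgfbr3, betaglycan, a co-receptor that presents TGF-beta2 and inhibin, had 228 and 265 CPM in osteogenic CAR-like cells, against 472 and 529 CPM in adipogenic CAR-like cells, 2.07-fold (interval 1.91 to 2.25) and 2.00-fold (interval 1.87 to 2.13) lower. The main BMP receptors Bmpr1a, Bmpr2 and Acvr1 and the TGF-beta receptors Tgfbr1 and Tgfbr2 did not pass in either library. Bmpr1a, for example, had 62.5 and 59.6 CPM in osteogenic CAR-like cells, against 67.9 and 67.5 CPM in adipogenic CAR-like cells.

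Among the SMADs, Smad6 was higher in osteogenic CAR-like cells. Smad6 (chr9:63953076-64022059, minus strand), an inhibitory SMAD that BMP signals themselves are known to induce, had 86.2 CPM in chase and 111 CPM in pulse osteogenic CAR-like cells, against 41 and 57.7 CPM in adipogenic CAR-like cells, 2.1-fold (interval 1.81 to 2.43) and 1.93-fold (interval 1.72 to 2.15) higher. Both-gate CAR-like cells had 99.4 and 125 CPM, and osteoblast-like cells 24.6 and 34.4 CPM. Smad3, the TGF-beta-activated SMAD, was 2.45-fold (interval 1.86 to 3.2) higher in chase and did not pass in pulse, with 17.1 CPM in osteogenic and 12.5 CPM in adipogenic CAR-like cells. The others, Smad1, Smad2, Smad4, Smad5, Smad7 and Smad9, did not pass in either library. Of the genes of other function, Bmp1, the protease that trims procollagen and cleaves chordin, was 2.46-fold (interval 2.28 to 2.64) and 1.82-fold (interval 1.72 to 1.93) higher, and Bmp2k, a kinase named for its induction by BMP2, was 2.28-fold (interval 1.99 to 2.6) and 1.61-fold (interval 1.43 to 1.8) higher.

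The promoters of Smad6 and Grem1 are shown because these inhibitors of BMP signalling lay on opposite sides of the CAR-like classes. The windows run from 250 bases before to 50 bases after the start of the RefSeq gene on GRCm38.p6, 5′ to 3′ on the minus strand, at chr9:64022010-64022309 for Smad6 and chr2:113758599-113758898 for Grem1. Both strands were searched for the palindromes GTCTAGAC, which SMAD3 and SMAD4 are known to bind, and GGCGCC, the core of a GC-rich SMAD1 and SMAD5 element. Capitals mark the matches:
Smad6: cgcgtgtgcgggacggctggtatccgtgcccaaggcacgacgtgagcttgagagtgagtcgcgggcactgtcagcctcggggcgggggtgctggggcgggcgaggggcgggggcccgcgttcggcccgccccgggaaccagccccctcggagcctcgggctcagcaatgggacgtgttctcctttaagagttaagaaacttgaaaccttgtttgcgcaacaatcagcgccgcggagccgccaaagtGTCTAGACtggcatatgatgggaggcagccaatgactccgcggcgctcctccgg
Grem1: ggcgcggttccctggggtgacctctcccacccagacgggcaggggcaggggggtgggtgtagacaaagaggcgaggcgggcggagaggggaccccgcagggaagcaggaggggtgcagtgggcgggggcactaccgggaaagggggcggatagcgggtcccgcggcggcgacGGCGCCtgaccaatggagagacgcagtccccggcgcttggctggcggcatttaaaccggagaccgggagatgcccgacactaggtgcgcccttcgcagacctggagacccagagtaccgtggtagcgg
The Smad6 window held GTCTAGAC starting 4 bases before the gene start, and 0.213% of all 32851 windows of this length hold that palindrome. The Grem1 window held GGCGCC starting 78 bases before the gene start, a palindrome found in 11.9% of all windows. Of the 48 members, 32 had windows in the RefSeq table, 37 windows in all, of which 1 held GTCTAGAC and 12 held GGCGCC. A match describes the letters and is no evidence of binding.

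Known target genes of the pathway lay on both sides between osteogenic and adipogenic CAR-like cells. Of 13 listed BMP targets, 10 could be assessed in each library; 4 were higher and 2 lower in chase, and 5 were higher and 3 lower in pulse. Over all genes assessed, 14.3% were higher and 16.8% lower in chase, and 13.9% were higher and 12.6% lower in pulse, which is also the background of the other lists below. Dlx5, a homeobox gene of osteoblast commitment, had 204 CPM in chase and 212 CPM in pulse osteogenic CAR-like cells, against 52 and 90.7 CPM in adipogenic CAR-like cells, 3.93-fold and 2.33-fold higher. Hey1, a repressor of transcription, was 3.38-fold and 2.8-fold higher, and Sp7, osterix, was 5.18-fold and 4.4-fold higher, although Sp7 also stands among the osteoblast markers. Id2, an inhibitor of DNA binding, went the other way, 1.94-fold and 2.32-fold lower. Of 14 TGF-beta targets, 3 of 12 assessed were higher and 4 lower in chase, and 2 of 13 were higher and 4 lower in pulse. Pmepa1, which restrains SMAD2 and SMAD3, had 525 and 706 CPM in osteogenic CAR-like cells, against 309 and 338 CPM in adipogenic CAR-like cells, 1.7-fold and 2.09-fold higher.

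Extracellular regulators outside the symbol rule followed the antagonists in part. Of 29 listed, 13 could be assessed in each library, and 3 were higher and 2 lower in both chase and pulse. Chrdl1, a chordin-like BMP antagonist, had 21.3 CPM in chase and 26.5 CPM in pulse osteogenic CAR-like cells, against 904 and 776 CPM in adipogenic CAR-like cells, 42.3-fold and 29.3-fold lower. Crim1, a membrane-anchored BMP-binding protein, was 7.07-fold and 4.33-fold lower. Nbl1, a DAN-family antagonist, was on the other side, 15.2-fold and 8.46-fold higher. Of 15 genes of latent TGF-beta storage, 12 were assessed; 3 were higher and 5 lower in chase, and 3 were higher and 4 lower in pulse. Dcn, decorin, a matrix proteoglycan that binds TGF-beta, was 12.4-fold and 6.61-fold higher, and Ltbp2, a matrix protein of the latent TGF-beta binding family, was 9.01-fold and 5.56-fold lower. Of 23 co-receptors and intracellular regulators, 19 were assessed; 3 were higher and 3 lower in chase, and 3 were higher and 1 lower in pulse.

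Several other features moved with this contrast. Of 18 immediate early genes, which respond within minutes to stimuli including tissue dissociation, 17 were at least 1.5-fold lower in osteogenic CAR-like cells in each library, and their summed level was 11452 CPM in chase and 7834 CPM in pulse osteogenic CAR-like cells, against 33516 and 25075 CPM in adipogenic CAR-like cells. Mitochondrial transcripts summed to 54601 and 49570.0 CPM in osteogenic CAR-like cells, against 32818 and 32423 CPM in adipogenic CAR-like cells. Their part in the differences of the members was not tested.

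Between chase and pulse, fewer members passed 1.5-fold, and they differed by class. In adipogenic CAR-like cells 3 of 43 members assessed were at least 1.5-fold higher in chase (Inhbb, Nog and Bmp6; background 7.66% of 12645 genes) and 4 were lower (Bmp3, Tgfb2, Bmp1 and Fstl1; background 6.66%). In both-gate CAR-like cells 2 of 35 were higher (Nog and Inhbb; background 5.86%) and 4 lower (the same 4 as in adipogenic CAR-like cells; background 9.59%). In osteogenic CAR-like cells 3 of 38 were higher (Bmp8a, Inhba and Smad3; background 5.39%) and 6 lower (Tgfb2, Inhbb, Bmp4, Fstl1, Bmper and Grem1; background 8.17%). In osteoblast-like cells 1 of 34 was higher (Bmp5; background 8.23%) and 4 lower (Bmp2, Fstl1, Grem1 and Inhbb; background 3.94%), of which Grem1 turned its direction under stricter gates (log2 ratio 0.35). Grem1 had 12.6 CPM in chase and 21 CPM in pulse osteoblast-like cells, where RNA carried over from other classes, estimated from tracer genes such as Adipoq, would bring 12.2 and 18 CPM. Without the 4 members of high carry-over, 3 of 30 were lower in osteoblast-like cells. Fstl1 was among these at 1.5-fold (interval 1.32 to 1.71), with 65.9 CPM in chase and 99 CPM in pulse. Its estimated carry-over was 19.7 and 37 CPM. The member medians of the log2 ratio were -0.06, 0.02, -0.14 and 0.01 in these 4 classes, beside -0.02, -0.09, -0.07 and 0.07 over all genes assessed. Members lower in chase made up 9.30% in adipogenic, 11.4% in both-gate and 15.8% in osteogenic CAR-like cells and 11.8% in osteoblast-like cells, from counts of 4 to 6. In adipogenic and both-gate CAR-like cells these shares lay near the background of 6.66% and 9.59%. The classes are not separate instances, because Fstl1 was lower in all 4 and Tgfb2 in each CAR-like class.

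**Figure D4:**
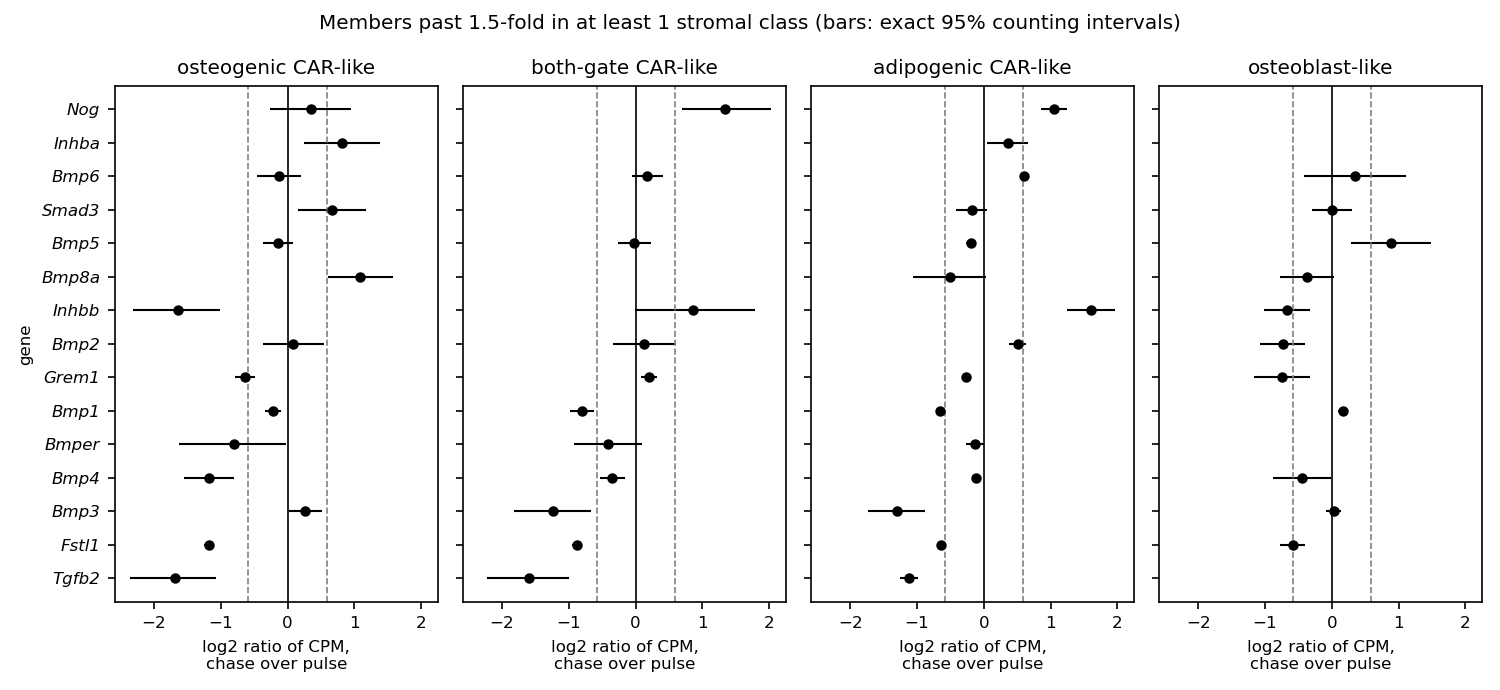
Log2 ratio of CPM in chase over pulse for the 15 members that passed 1.5-fold (dashed lines) in at least 1 of 4 stromal classes, with exact 95% counting intervals; a missing point is a member under 50 UMIs in that class. Tgfb2 and Fstl1 lie left of 0 in every panel that shows them, and Inhbb lies on opposite sides in osteogenic and adipogenic CAR-like cells.

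Tgfb2 was lower in chase in each of the 3 CAR-like classes. It had 9.91 CPM in chase and 32 CPM in pulse osteogenic CAR-like cells, 3.23-fold (interval 2.1 to 5.15) lower. It had 15.9 CPM in chase and 48.3 CPM in pulse both-gate cells, 3.03-fold (interval 1.99 to 4.7) lower, and 24.4 and 53 CPM in adipogenic CAR-like cells, 2.17-fold (interval 1.97 to 2.39) lower. Fstl1 was lower in chase in the same classes, with 697 CPM in chase and 1569.7 CPM in pulse osteogenic CAR-like cells, 2.25-fold (interval 2.14 to 2.37) lower, and 1603 and 2489 CPM in adipogenic CAR-like cells, 1.55-fold (interval 1.53 to 1.57) lower. Nog, the BMP-binding antagonist, was higher in chase in adipogenic CAR-like cells, with 23.5 CPM in chase and 11.4 CPM in pulse, 2.07-fold (interval 1.81 to 2.38) higher, and in both-gate cells, with 43.6 and 17.2 CPM, 2.53-fold (interval 1.63 to 4.08) higher.

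Bmp6 was 1.52-fold (interval 1.47 to 1.56) higher in chase adipogenic CAR-like cells, with 382 CPM in chase and 252 CPM in pulse, and did not pass in the other stromal classes. Bmp3 was 2.45-fold (interval 1.83 to 3.32) lower there, at the low levels of 2.59 CPM in chase and 6.35 CPM in pulse, and 2.35-fold (interval 1.58 to 3.54) lower in both-gate cells, while in osteogenic CAR-like cells it had 96.4 CPM in chase and 80.3 CPM in pulse and did not pass. Bmp1 was 1.57-fold (interval 1.5 to 1.63) lower in adipogenic CAR-like cells and 1.74-fold (interval 1.54 to 1.97) lower in both-gate cells. Bmp4 kept its level in adipogenic CAR-like cells within 1.5-fold, but in osteogenic CAR-like cells it had 31.6 CPM in chase and 71.2 CPM in pulse, 2.25-fold (interval 1.75 to 2.92) lower. Grem1 was 1.55-fold (interval 1.4 to 1.72) lower in chase osteogenic CAR-like cells as well. Adipoq, the tracer of adipogenic CAR-like cells, was also lower there, with 102 CPM in chase and 203 CPM in pulse. Carry-over from adipogenic CAR-like cells into osteogenic CAR-like cells was not estimated, and its part in these ratios was not tested. The contrast of osteogenic with adipogenic CAR-like cells was numerically wider in chase for Bmp4, Grem1, Bmp3 and Bmp8a. Every other member given above as past 1.5-fold in both libraries also had the wider fold in chase. The gate scores of these classes lay further apart in chase as well. The median adipogenic score was 169 against 25.3 in chase and 126 against 29.8 in pulse. The difference between the libraries, and the part of the gate scores in it, was not tested.

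Inhbb (chr1:119415465-119422248, minus strand), the activin B subunit, was lower in chase in osteogenic and higher in chase in adipogenic CAR-like cells. It had 9.91 CPM in chase and 30.9 CPM in pulse osteogenic CAR-like cells, from 26 and 112 UMIs, 3.12-fold (interval 2.02 to 4.98) lower. In adipogenic CAR-like cells it had 9.32 CPM in chase and 3.07 CPM in pulse, from 223 and 91 UMIs, 3.03-fold (interval 2.36 to 3.91) higher. In osteoblast-like cells it had 18.5 CPM in chase and 29.4 CPM in pulse, 1.59-fold (interval 1.25 to 2.03) lower. In both-gate cells, with 41 UMIs in chase and 16 in pulse, it was 1.82-fold (interval 0.997 to 3.47) higher, an interval that takes in no difference, and there the direction turned under the first form of the gates (log2 ratio -0.28). Inhbb was 10.0-fold (interval 7.55 to 13.4) higher in osteogenic than in adipogenic CAR-like cells in pulse and did not pass in chase. Endothelial-like cells, which had the most Inhbb (86.7 and 109 CPM), did not pass between the libraries, and the endothelial markers summed to 15.2 and 12.4 CPM in osteogenic CAR-like cells and 24 and 21.4 CPM in adipogenic CAR-like cells.

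Target genes between chase and pulse differed by class only in part. In adipogenic CAR-like cells, where 7.66% of all genes were higher and 6.66% lower, 2 of 10 BMP targets assessed were lower and none higher: Dlx5 had 52 CPM in chase and 90.7 CPM in pulse, 1.74-fold lower, and Atoh8, a BMP-induced helix-loop-helix gene, had 13.8 and 21.1 CPM, 1.52-fold lower. Of the TGF-beta targets there, 2 of 13 were higher and 5 lower. In both-gate cells, 1 of 10 BMP targets was higher and 0 lower, and 3 of 12 TGF-beta targets were higher and 2 lower, where 5.86% of all genes were higher and 9.59% lower. Tagln, transgelin, was 6.36-fold lower in chase adipogenic CAR-like cells and 16.1-fold lower in chase osteogenic CAR-like cells, and Ccn2, a matricellular protein, had 446 CPM in chase and 756 CPM in pulse adipogenic CAR-like cells, 1.7-fold lower. In osteogenic CAR-like cells, 2 of 10 BMP targets were lower and 0 higher, the same counts as in adipogenic CAR-like cells. Atoh8 was among the lower ones there too, 1.85-fold lower. Of the TGF-beta targets in osteogenic CAR-like cells, 2 of 12 were higher, among them Tgfbi with 36.6 CPM in chase and 21 CPM in pulse. Only 1 was lower. Over all genes assessed in this class, 5.39% were higher and 8.17% lower. The fibrillin genes, whose proteins anchor latent TGF-beta, were lower in chase: Fbn1 by 2.07-fold in osteogenic and 1.7-fold in adipogenic CAR-like cells, and Fbn2 by 3.25-fold and 2.93-fold.

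Other signals moved with harvest time as well. Immediate early genes at least 1.5-fold higher in chase numbered 9 of 18 in osteogenic, 14 of 18 in both-gate and 5 of 18 in adipogenic CAR-like cells. Ribosomal protein transcripts summed to 118411 CPM in chase and 135531 CPM in pulse osteogenic CAR-like cells and to 73800.2 and 91058 CPM in adipogenic CAR-like cells. The median depth of adipogenic CAR-like cells was 6590.5 UMIs in chase and 8173 in pulse. The part of these differences in the members' ratios was not tested, and the library and the harvest time cannot be told apart.

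Outside the stroma, several members had their highest level in a vascular or blood class. Gdf15, a stress-induced ligand, had 824 CPM in chase and 1007 CPM in pulse monocyte or macrophage-like cells and at most 40.4 CPM in any CAR-like class. Inhba had 127 and 107 CPM in neutrophil-like cells. Smad7 had 353 and 319 CPM in T cell-like cells, with 215 and 179.9 CPM in both-gate CAR-like cells, the next class. In T cell-like cells Gdf11 had 57.7 CPM in chase and 11.4 CPM in pulse, the highest of the classes in chase and not in pulse. In endothelial-like cells, Tgfbr2 had 277 and 231 CPM, against 158 and 184 CPM in monocyte or macrophage-like cells, the next class. In endothelial-like cells Bmpr2 had 261 and 286 CPM, against 176 and 181 CPM in both-gate CAR-like cells, and Acvrl1, whose loss causes vascular malformation, had 92.8 and 104 CPM. Their levels sat alongside Smad1 at 259.8 and 220.2 CPM and Smad5 at 193 and 178 CPM. Levels of 9 members, these among them, were highest in endothelial-like cells.

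In chase against pulse, endothelial-like cells had 0 of 30 members at least 1.5-fold higher (background 4.53%) and 6 lower (Grem1, Bmp1, Tgfb3, Fstl1, Fst and Acvr1; background 3.89%), and monocyte or macrophage-like cells had 0 of 31 higher (background 4%) and 7 lower (Fstl1, Bmp1, Grem1, Bmp2, Tgfbr3, Smad6 and Bmp5; background 6.97%). With a mean over cells, the counts were 2 higher and 5 lower in endothelial-like cells and 3 higher and 1 lower in monocyte or macrophage-like cells, and with Leiden clusters 12 were lower in monocyte or macrophage-like cells. Several of these genes reach their highest level in CAR-like cells. Grem1 had 60.8 CPM in chase and 175 CPM in pulse endothelial-like cells. RNA carried over from other classes, estimated from tracer genes such as Adipoq, would bring 83.3 and 121 CPM there. Fstl1 had 37.9 CPM in chase and 98.7 CPM in pulse monocyte or macrophage-like cells, where the carry-over would be 34.7 and 73.8 CPM. The members whose estimated carry-over was at least 50% of the level in either library were then left out. Of the rest, 2 of 22 were lower in endothelial-like cells (Tgfb3 and Acvr1) and 3 of 23 in monocyte or macrophage-like cells (Bmp1, Bmp2 and Smad6). In chase endothelial-like cells Tgfb3 lay just under that limit, with 6.79 CPM from 21 UMIs beside a carry-over of 3.36 CPM. Bmp2 had 16 CPM in chase and 30.3 CPM in pulse monocyte or macrophage-like cells, 1.9-fold (interval 1.61 to 2.23) lower, beside a carry-over of 1.15 and 1.16 CPM.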

How the data were processed

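Single-cell RNA was captured with a 10x 3′ kit in 1 chase and 1 pulse library. The authors deposited raw UMI counts per gene and called cell, made with Cell Ranger 6.0.2 per the file headers (2.1.1 per the submitters' processing notes) on mm10. Cells were kept from 500 genes and 1000 UMIs upwards if mitochondrial counts made up less than 10%, and Scrublet in scanpy 1.11.5 (Python 3.11.15) removed 110 chase and 178 pulse doublets. Total counts were 82939659 in chase and 89009901 in pulse.

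A cell entered a class when its UMIs of a marker list reached a set number per 10000 with at least 3 markers: 64 for each CAR list (scored without Cxcl12 and without Spp1), 1024 for osteoblasts and 16 for osteocytes. The 253 chase and 262 pulse cells of more than 1 compartment were left out, and 318 and 618 passed no gate. UMIs were summed per class and library and divided by the class total (CPM), so a rise of a few abundant genes lowers the CPM of all others. A gene was assessed with at least 50 UMIs over both groups, and passed at 1.5-fold. Ratios have exact conditional intervals, levels exact Poisson and shares exact Clopper-Pearson ones, all at 95%. The interval script was tested on simulated data. Carry-over was estimated from a tracer gene of the source class, but not from adipogenic CAR-like cells into osteogenic or both-gate CAR-like cells.

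Every member with at least 50 UMIs could be named, with full values at 20 CPM in a class or 1.5-fold and 10 CPM in a comparison, and up to 4 genes with at least 20 CPM and the largest ratio per pathway list and comparison. The members, lists and gates were chosen with earlier results of these data known, and the gate levels after seeing the marker scores. Alternatives were the scaling, the gates, clusters in place of gates, the filters, doublets and thresholds. The values of 1 member and of 1 pathway gene are not reported here.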

Additional observations from a re-analysis of the deposited data

Results flagged for a closer look

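Inhbb was picked out because its chase over pulse ratio ran in opposite directions in different stromal classes. Its log2 ratio was 1.59 in adipogenic CAR-like cells and -1.62 in osteogenic CAR-like cells, a difference of 3.21, and -0.66 in osteoblast-like cells, a difference of 2.26 from adipogenic CAR-like cells. With 1 library per harvest time, neither difference was tested.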

How the results depend on the processing

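Of 174 counts of members recomputed under other settings, 43 moved by over 1.5 times, and of 1972 member ratios 4 reversed. Many more ratios moved without reversing, so the fold values depend on the gates. With stricter gates 82 ratios moved and 152 stayed the same, and with the first form of the gates 63 moved and 227 stayed. With Leiden clusters 62 moved and 198 stayed, and with a mean over cells 28 moved and 268 stayed. No count moved with median-of-ratios scaling, which shifted all genes by -0.12 (log2) in both-gate cells and by under 0.1 elsewhere, or with no filter on cells. All counts below are of members in chase against pulse unless a contrast of CAR-like classes is named, and the cause of the changes was not tested.

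With a mean over cells, 3 members were higher in osteoblast-like, 2 in endothelial-like and 3 in monocyte or macrophage-like cells, and 1 was lower in the last of these. With stricter gates, 1 was lower in osteoblast-like and 1 higher in endothelial-like cells, the log2 ratio of Grem1 in osteoblast-like cells was 0.35 and that of Inhba in pulse osteogenic over adipogenic CAR-like cells was -0.76. With Leiden clusters, 3 were lower in osteogenic CAR-like, 7 in osteoblast-like and 12 in monocyte or macrophage-like cells, 1 was higher in endothelial-like cells, and the log2 ratio of Gdf9 in pulse osteogenic over adipogenic CAR-like cells was -0.35. With doublets kept, 11 were lower in monocyte or macrophage-like cells. With at least 200 UMIs, which leaves fewer members to assess, 0 were higher and 2 lower in both-gate, 0 higher and 3 lower in osteogenic CAR-like and 0 higher in osteoblast-like cells.

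With no minimum of UMIs, which lets in members with few counts, 7 were higher and 10 lower in osteogenic CAR-like, 4 and 7 in both-gate, 5 and 9 in adipogenic CAR-like, 8 and 9 in osteoblast-like, 2 and 17 in endothelial-like and 4 and 16 in monocyte or macrophage-like cells, and 14 were higher in chase osteogenic than adipogenic CAR-like cells. At a fold of 2, 1 was higher in osteogenic CAR-like, 1 higher and 2 lower in both-gate, 2 lower in adipogenic CAR-like, 0 higher and 0 lower in osteoblast-like, 3 lower in endothelial-like and 3 lower in monocyte or macrophage-like cells, and 4 were higher and 7 lower in pulse osteogenic than adipogenic CAR-like cells.

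2 alternatives were added after seeing the data. With the first form of the CAR gates, scored with Cxcl12 and Spp1 at 128 per 10000, 1 was higher in monocyte or macrophage-like cells, 6 were higher in pulse osteogenic than adipogenic CAR-like cells, and the log2 ratio of Inhbb in both-gate cells was -0.28. Without the members of high carry-over, 2 were lower in endothelial-like and 3 in monocyte or macrophage-like cells. Stricter gates left 3 chase and 1 pulse both-gate cells and the clusters hold no both-gate class, so neither gave a value there. No paired analysis was possible because each harvest time has 1 library. Members with few UMIs in a class, such as Inhbb in both-gate cells, have wide intervals.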
